A study of Mus musculus with 6 samples.

Results

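The genes described here were 9 members of the gp130 cytokine pathway, taken from 21938 protein-coding genes of the GENCODE annotation. They were the ligands Lif and Cntf, the receptor chains Lifr, Il6st and Osmr, the kinases Jak1 and Jak2, the transcription factor Stat3 and the inhibitor Socs3. For each gene, every H3K27ac peak within 2.5 kb of an annotated transcription start site, or within the gene body and 20 kb on either side of it (the locus), was collected from 6 peak lists. The loci held 114 of the 135652 peaks. H3K27ac is the acetylation of lysine 27 of histone H3, a mark of active promoters and enhancers, and it was profiled by ChIP-seq in bulk retina of wild-type mice that were 3 months old at the first pressure elevation. In the 4xIOP group (3 retinas), intraocular pressure (IOP) was raised in one eye to 30 mmHg for 1 h on 4 occasions spaced by a fortnight. The control group (3 retinas) consisted of contralateral untreated eyes, and retinas of both groups were taken at day 2 from the last elevation. The comparison addressed whether H3K27ac in young retina changes after repeated stress. The labels gave no sex, did not tie the eyes of one animal together, and shared a protocol text that mentions dasatinib and vehicle injections without assigning either to these samples.

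The cytokines of this pathway bind a ligand-specific receptor and then the shared receptor chain gp130, encoded by Il6st. LIF signals through the LIF receptor and gp130, CNTF recruits these same chains through its own alpha receptor, and the oncostatin M receptor is a further partner of gp130. JAK kinases bound to the receptor tails phosphorylate STAT3, which enters the nucleus and binds palindromic sites of the type TTCNNNGAA. SOCS3 is a STAT3 target that binds gp130 and the JAK kinases and shuts the signal off. In the injured retina, LIF and CNTF are known as glial cytokines that protect photoreceptors and ganglion cells.

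The promoters of these genes differed in sequence, and 5 stretches are shown: Socs3, the one gene marked in some lists only, Lifr, the gene with the most peaks, and the 3 genes without a peak. The first lies 44 to 343 bases upstream of the protein-coding Socs3 start site (GRCm38 chr11:117969230-117969529, minus strand), inside the Socs3 promoter region whose peaks differed between lists. Its capitals mark both matches to TTCNNNGAA, which reads alike on both strands, and the nearer match ends 53 bases upstream of the start site. The other 4 are RefSeq promoters of GRCm38.p6, from 250 bases before to 50 bases after a start, with each CpG dinucleotide in capitals. They are Lifr (chr15:7129322-7129621, plus strand), Osmr (chr15:6874264-6874563, minus strand), Lif (chr11:4257318-4257617, plus strand) and Cntf (chr19:12765583-12765882, minus strand).
Socs3: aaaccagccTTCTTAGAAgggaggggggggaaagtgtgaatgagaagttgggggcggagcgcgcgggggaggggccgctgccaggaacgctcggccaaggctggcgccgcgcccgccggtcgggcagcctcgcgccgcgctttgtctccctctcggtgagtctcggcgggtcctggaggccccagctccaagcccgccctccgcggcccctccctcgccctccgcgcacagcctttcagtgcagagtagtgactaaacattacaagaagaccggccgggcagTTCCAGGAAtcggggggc
Lifr: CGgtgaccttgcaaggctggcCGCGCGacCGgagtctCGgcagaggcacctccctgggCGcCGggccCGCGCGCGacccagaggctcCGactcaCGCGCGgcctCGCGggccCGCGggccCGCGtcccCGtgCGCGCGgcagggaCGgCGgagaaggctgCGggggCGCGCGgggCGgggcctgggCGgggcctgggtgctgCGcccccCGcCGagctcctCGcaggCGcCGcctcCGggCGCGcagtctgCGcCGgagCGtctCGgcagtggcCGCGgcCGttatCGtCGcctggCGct
Osmr: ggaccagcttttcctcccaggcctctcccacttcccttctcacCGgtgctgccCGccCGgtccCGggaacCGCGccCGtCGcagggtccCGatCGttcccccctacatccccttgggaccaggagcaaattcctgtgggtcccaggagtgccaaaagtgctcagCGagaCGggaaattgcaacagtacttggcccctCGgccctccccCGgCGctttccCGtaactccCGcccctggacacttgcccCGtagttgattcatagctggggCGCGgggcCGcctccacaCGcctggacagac
Lif: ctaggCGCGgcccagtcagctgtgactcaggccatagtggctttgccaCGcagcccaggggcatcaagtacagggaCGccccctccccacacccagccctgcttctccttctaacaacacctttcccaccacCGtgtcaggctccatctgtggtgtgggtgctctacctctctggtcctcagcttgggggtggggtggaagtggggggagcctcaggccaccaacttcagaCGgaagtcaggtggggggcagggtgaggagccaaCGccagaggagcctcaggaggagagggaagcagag
Cntf: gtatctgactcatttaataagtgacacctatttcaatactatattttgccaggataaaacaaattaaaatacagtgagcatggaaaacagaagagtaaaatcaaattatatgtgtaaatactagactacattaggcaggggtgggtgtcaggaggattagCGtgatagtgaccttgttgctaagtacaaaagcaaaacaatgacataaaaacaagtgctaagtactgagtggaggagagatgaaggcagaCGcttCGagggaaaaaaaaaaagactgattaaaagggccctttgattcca

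The Lifr stretch held 53 CpG dinucleotides, Osmr 22, Lif 7 and Cntf 3. The observed over expected CpG ratio was 1.07 for Lifr, 0.943 for Il6st, 0.947 for Jak1, 0.894 for Jak2, 0.769 for Socs3, 0.705 for Osmr and 0.545 for Stat3, against 0.231 for Lif and 0.323 for Cntf. A second RefSeq promoter of Lifr (chr15:7140292-7140591), further into the gene and with no peak within 2.5 kb in any list, had a ratio of 0.188. Both ligand genes thus had CpG-poor promoters, as did this second Lifr start. Among 7623 RefSeq promoters of protein-coding genes with a ratio under 0.4, 81.0% had no peak within 2.5 kb in any list, whereas the share was 10.8% of the 9901 promoters with a ratio of 0.6 or more. Osmr was thus CpG-rich and yet without a peak. The letters TTCNNNGAA occurred in 1 of the 10 RefSeq promoters of these genes (Socs3) and in 8.30% of all 32851 RefSeq promoters. A match describes letters and not a bound site.

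The 6 lists differed in depth and length. They held 16195 to 36509 peaks, the most in control replicate 3 and the fewest in 4xIOP replicate 3, and their genome mean background was 87.4 to 173 fragments per 10 kb. In each list the whole number of fragments at a peak summit was recovered from the deposited fold and p-value. It is given below as such and, to compare lists, divided by the genome mean background (relative fragments). Promoters of 10 of 10 rod photoreceptor markers were marked in all 6 lists, beside 40.6% of all protein-coding genes. The counts were 2 of 8 for bipolar cells, 1 of 8 for amacrine and horizontal cells and 1 of 7 for pigment epithelium. They were 1 of 12 for Müller glia and 1 of 9 for microglia and macrophages. For astrocytes they were 0 of 4, for cones 0 of 6, for ganglion cells 0 of 8 and for vascular cells 0 of 6. The part of cell composition in the results was not tested, and in bulk tissue fewer cells with a mark and less of it per cell cannot be told apart. The deposited peaks of 4 lists carried a name of the other group: those of control replicates 1 and 2 were named as pressure-treated and those of 4xIOP replicates 1 and 2 as control. The groups here followed the labels throughout, and counts, fragments and covered length are given by list, in the order of replicates 1, 2 and 3 of a group, so that they can be read with and without these 4 lists. Group means, permutation tests, limma scores and shares of all genes or regions rest on all 6 lists, and limma could not be fitted to the other 2 lists alone. Which of label and name is right was not tested, and some values are also given, with no test, with the lists grouped by name.

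Of the 9 genes, 5 had a marked promoter in all 6 lists (Lifr, Il6st, Stat3, Jak1 and Jak2), 3 in none (Lif, Cntf and Osmr), and Socs3 in 4. A promoter was called marked when a peak overlapped the 2.5 kb on either side of any annotated start. Over all protein-coding genes, 40.6% were marked in all 6 lists and 41.2% in none. The number of these genes marked was 6 in each control list, 5 in 4xIOP replicates 1 and 2, and 6 in 4xIOP replicate 3, and Socs3 alone made the difference. The mean was 0.667 genes lower in 4xIOP than in control lists by label and, with the lists grouped by the names their peaks carry, 0.667 genes higher. The share of all protein-coding genes marked was 51.8% ± 5.63 (SD, n = 3) in control and 47.0% ± 1.48 (SD, n = 3) in 4xIOP lists.

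**Figure D1:**
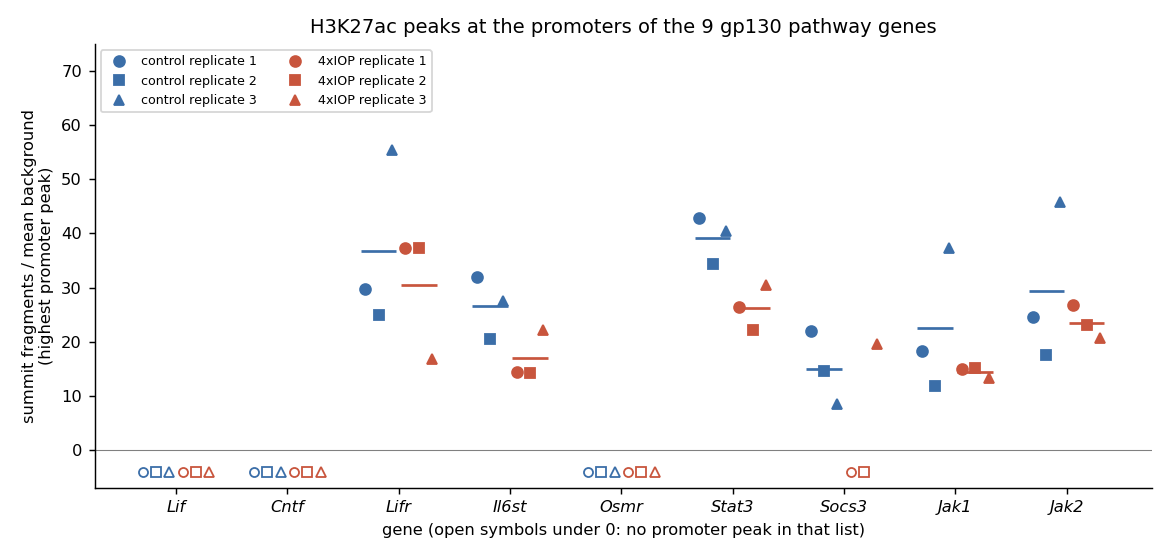
Relative fragments (summit fragments over the genome mean background of the list) of the highest promoter peak, by gene (x axis) and list (blue, control; red, 4xIOP), with a bar at the mean of 3 lists where all 3 had a peak; open symbols below 0 are lists with no promoter peak. Lif, Cntf and Osmr had no peak in any list, Socs3 had none in 4xIOP replicates 1 and 2, and the groups overlapped for every gene marked in all 6 lists except Stat3.

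The ligand genes carried no called H3K27ac. No list held a peak in the locus of Lif or of Cntf. The nearest peak to a Lif start was 38.9 to 70.0 kb away, lay in the Castor1 promoter in 4 lists, and had 13 to 30 fragments. The nearest peak to the Cntf start was 29.0 to 29.3 kb away in every list, at the start sites of Zfp91 and Lpxn. With no background value for positions outside peaks, an uncalled promoter means only that its signal lay under the calling threshold of that list. Among 10 other ligand and ligand-subunit genes of the family, 8 had no marked promoter in any list, among them Il6, Il11 and Osm, which encode interleukin 6, interleukin 11 and oncostatin M. Ctf1, which encodes cardiotrophin 1, was marked in 2 lists. Clcf1, encoding cardiotrophin-like cytokine factor 1, was marked in all 6, with 21, 30 and 31 fragments in control and 21, 18 and 23 in 4xIOP lists.

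The receptor genes fell into marked and unmarked. Osmr had no peak in its locus in any list, and the nearest one was 74.8 to 116 kb from a start site. Lifr and Il6st were marked in all 6 lists. Of 5 other receptor genes of the family, none was marked in all 6: Il27ra and Il31ra were marked in no list, Il6ra and Cntfr in 1 control list each, and Il11ra1 in 2 control lists.

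Lifr had the most peaks of the 9 loci, with 11 regions (merged over lists) from -12.6 to 116 kb of its first start. The gene has a first annotated start of a single transcript and, 38.9 kb downstream, the start shared by its main protein-coding transcripts. The 2 regions called in all 6 lists lay at the second. Region 5 (chr15:7128626-7129377) lay just upstream of that start and region 6 (chr15:7129601-7130044) just downstream. The summit of the stronger one, region 5, had 65, 84 and 137 fragments across the control lists and 75, 79 and 43 across the 4xIOP lists. Relative fragments were 29.7, 24.8 and 55.5 in control and 37.3, 37.2 and 16.8 in 4xIOP lists. The highest value was in control replicate 3 and the lowest in 4xIOP replicate 3, while 4xIOP replicates 1 and 2 lay above control replicates 1 and 2, so the groups overlapped. With the lists grouped by name they did not, with means of 43.3 in lists named as control and 23.8 in lists named as pressure-treated. The medians over all promoters marked in all 6 lists, given below, were also mostly higher in lists named as control. How many promoters share this order by name was not counted.

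The remaining Lifr regions were weaker and less shared. At the first start, region 3 (chr15:7088489-7089221) was called in 2 control and 2 4xIOP lists with 23 to 35 fragments. Region 8 (chr15:7151772-7152634), within 2.5 kb of an internal start, was called in 3 control lists and 1 4xIOP list. Region 11 (chr15:7205545-7206443), beyond the 3′ end of the gene, was called in 2 control and 2 4xIOP lists. Regions 2 and 7 were called in control replicate 3 only, the list with the most peaks.

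**Figure D2:**
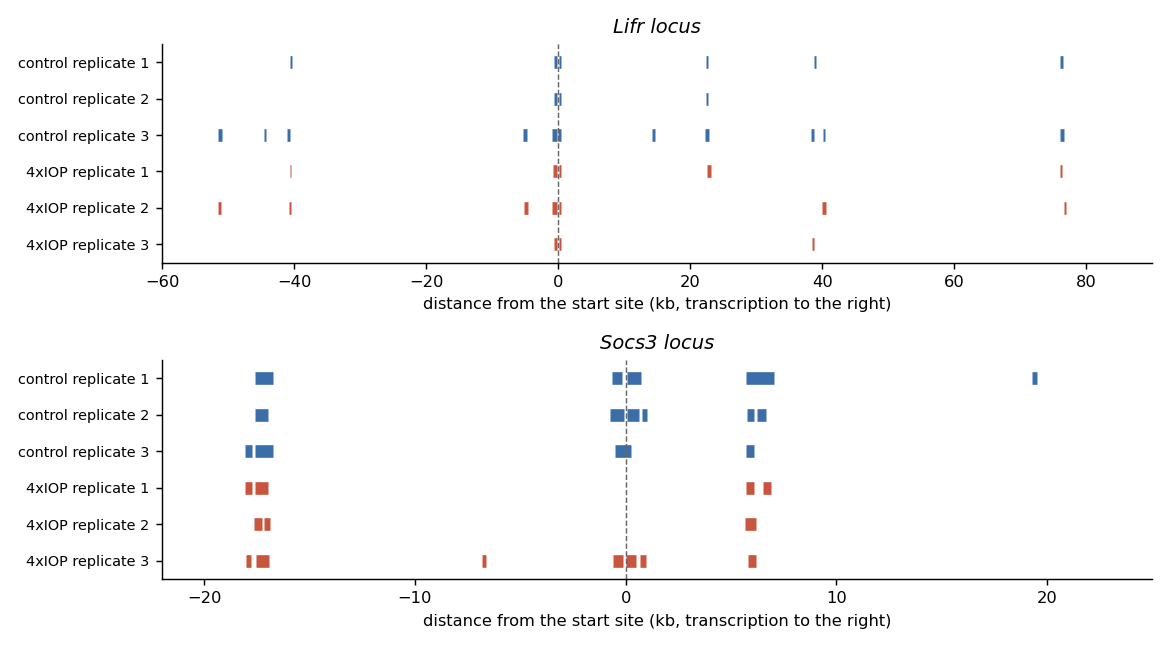
Peaks of the Lifr and Socs3 loci by list (rows; blue, control; red, 4xIOP), plotted by distance in kb from the first start site of a transcript that GENCODE labels basic (dashed line). The pair of peaks at the Lifr start and the Socs3 peaks near -17 and +6 kb recur in all 6 lists, whereas the Socs3 start site has no peak in 4xIOP replicates 1 and 2.

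Il6st, the gene of the shared receptor chain gp130, had 2 regions and both were called in all 6 lists. Region 1 (chr13:112463210-112463959) lay upstream of the first start and region 2 (chr13:112464130-112464831) downstream of it. The higher of the 2 summits had 70, 69 and 68 fragments in control and 29, 30 and 57 in 4xIOP lists. The raw fragments thus did not overlap between groups, but the relative fragments did: 31.9, 20.4 and 27.5 in control against 14.4, 14.1 and 22.2 in 4xIOP lists. Raw fragments higher in every control than in every 4xIOP list were found for 27.5% of the 8906 promoters marked in all 6 lists. The fold percentile, which ranks a peak among all peaks of its own list, was 86.3, 87.7 and 88.7 in control and 61.2, 69.3 and 85.7 in 4xIOP lists (87.6 ± 1.24 and 72.1 ± 12.5; SD, n = 3), higher in every control list than in every 4xIOP list. With the lists grouped by name the direction turned, to means of 73.1 in lists named as control and 86.6 in lists named as pressure-treated, and the values overlapped. That order by label was seen for 11.2% of the 8906 promoters marked in all 6 lists, and the reverse for 0.438%. An exact two-sided permutation test gave p = 0.1, the smallest that 3 lists against 3 allow.

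The kinase genes were marked in all 6 lists, and their relative fragments overlapped between groups. Jak1 region 2 (chr4:101264463-101265249), at the start site and reaching into the gene, was called in all 6 lists, and region 1 (chr4:101265527-101266362), upstream of it, in 3. The highest Jak1 promoter summit had 40, 40 and 92 fragments in control and 30, 32 and 34 in 4xIOP lists. Relative fragments were 18.2, 11.8 and 37.3 against 14.9, 15.1 and 13.3, so that control replicate 3 stood above all others and control replicate 2 below all. For Jak2, region 1 (chr19:29250855-29252316) lay around the start site and was called in all 6 lists, with 54, 59 and 113 fragments in control and 54, 49 and 53 in 4xIOP lists. Relative fragments were 24.6, 17.5 and 45.8 against 26.9, 23.1 and 20.7, so here too control replicate 3 was high and control replicate 2 low. The lists as a whole differed in the same way: the median over the 8906 promoters marked in all 6 lists was 16.0, 11.2 and 28.8 relative fragments in control and 16.9, 15.1 and 11.3 in 4xIOP lists. Jak2 also had a region in an intron (region 2, in 3 lists) and one overlapping an exon (region 3, chr19:29284909-29285943), the latter called in 1 control and 2 4xIOP lists with 17 to 19 fragments. By name, region 3 was called in all 3 lists named as control and in none named as pressure-treated.

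Of the other JAK and STAT genes, Stat2 and Stat5b were marked in all 6 lists and Stat4 in none. Stat2, with the highest mean fold percentile of those marked in all 6, had 39, 37 and 62 fragments in control and 28, 23 and 46 in 4xIOP lists. Its raw fragments overlapped between groups. Stat6, the transcription factor of interleukin 4 signalling, was marked in the 3 control lists with 16, 19 and 18 fragments and in no 4xIOP list. By name, these were 2 lists named as pressure-treated and 1 named as control. It was the only one of the 76 other pathway genes marked in every list of one group and in none of the other, a pattern found in 0.397% of all protein-coding genes. The reverse pattern occurred in 0 of 21938 genes. The control summits of Stat6 were low: 9 to 12 fragments was the least that could be called at mean background.

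Stat3 was marked in all 6 lists, and its summit was higher relative to background in every control list than in every 4xIOP list. Region 3 (chr11:100938790-100939445), just inside the gene, had 94, 116 and 100 fragments in control and 53, 47 and 78 in 4xIOP lists. Relative fragments were 42.9, 34.3 and 40.5 in control (39.2 ± 4.42) and 26.4, 22.1 and 30.4 in 4xIOP lists (26.3 ± 4.13; SD, n = 3). Values that did not overlap in this direction were found for 0.988% of the 8906 promoters marked in all 6 lists, and in the other direction for 0.0337%. The exact two-sided permutation test gave p = 0.1, the smallest possible. The order did not hold for the fold percentile, 84.2 ± 5.42 in control and 78.7 ± 3.76 in 4xIOP lists, where the groups overlapped, and the score of Stat3 differed by -0.01 ± 0.37 between groups in the test across all promoters given below. In the lists whose names matched their labels, relative fragments were 40.5 in control replicate 3 and 30.4 in 4xIOP replicate 3. With the lists grouped by name the direction turned, to means of 29.7 in lists named as control and 35.9 in lists named as pressure-treated, and the values overlapped.

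The upstream side of the Stat3 start differed as well. Region 2 (chr11:100939896-100940625) was called in every control list, with 45, 50 and 33 fragments and in 4xIOP replicate 3 with 37, but not in 4xIOP replicates 1 and 2. By name, it was called in all 3 lists named as pressure-treated and in 1 named as control. The highest fold of the region was low in each of these lists, at fold percentiles of 5.60 to 8.83. Of all consensus regions, 2.75% were called in all control lists and in 1 4xIOP list.

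**Figure D3:**
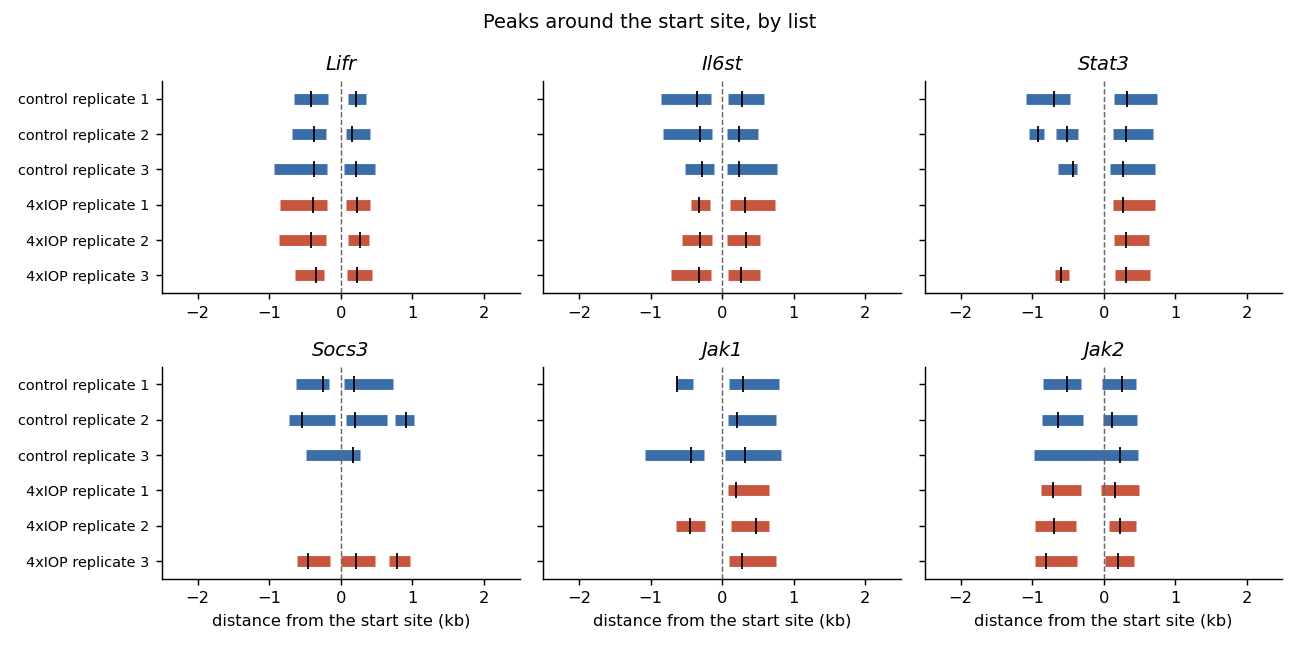
Peaks (bars) and summits (black ticks) within 2.5 kb of the start site (dashed line; first start of a transcript labelled basic), by list (blue, control; red, 4xIOP), for the 6 genes with a peak. Most start sites lie in a gap between an upstream and a downstream peak, and the upstream Stat3 peak and all Socs3 promoter peaks are missing in 4xIOP replicates 1 and 2.

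At the first basic start, peaks on both sides of an uncovered site were common among these genes, though not in every list. Of the 34 pairs of gene and list with a peak within 2.5 kb of the first basic start, 29 had no peak over the start itself, and 24 of these had a summit on each side of it. Over all protein-coding genes with such a peak, the share uncovered was 52.2% to 80.5% by list and the share flanked on both sides and uncovered was 22.1% to 27.2% by list. Lifr and Il6st had this shape in all 6 lists, whereas the Jak2 start was covered in 4. Jak1 had it only in control replicates 1 and 3 and 4xIOP replicate 2. The pairs count the same genes again in each list, and other starts of a gene were not scored. For Stat3, the downstream peak covered another basic start (chr11:100939380) in all 6 lists.

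Socs3, the feedback inhibitor of the pathway, was the only one of the 9 whose promoter was marked in some lists only. Region 4 (chr11:117968156-117969904) covered the protein-coding start and contained the sequence shown above. Its summit had 48, 49 and 21 fragments in the control lists and 50 in 4xIOP replicate 3, and it was not called in 4xIOP replicates 1 and 2. Relative to background the values were 21.9, 14.5 and 8.51 in control and 19.5 in 4xIOP replicate 3, so the one 4xIOP list with a peak lay within the control range. The 3 lists with 48 to 50 fragments were those whose peaks carried the name of the pressure-treated eyes. The 2 lists whose names matched their labels gave 21 fragments in control and 50 in 4xIOP. Marking in all control lists and in 1 4xIOP list was seen for 1.08% of all protein-coding genes.

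The Socs3 locus held 5 further regions. Region 5 (chr11:117962164-117963505), beyond the 3′ end of the gene, was called in all 6 lists with 59, 50 and 39 fragments in control and 25, 25 and 42 in 4xIOP lists. Relative fragments overlapped, at 26.9, 14.8 and 15.8 against 12.4, 11.8 and 16.4. With the lists grouped by name the direction turned, to mean fragments of 29.7 in lists named as control and 50.3 in lists named as pressure-treated. Region 5 held 3 matches to TTCNNNGAA, region 4 held 2 and region 2 held 1. Regions 1 and 2 (chr11:117986896-117987234 and chr11:117985897-117986797) lay at the start of Pgs1, an enzyme gene of cardiolipin synthesis, and region 2 was called in all 6 lists. Whether they act on Pgs1 or Socs3 was not tested.

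Over all 9 loci, the 6 genes with peaks had 27 of the 39942 consensus regions. In all 6 lists, 9 were called, against 26.4% of all regions, and 5 (18.5%) in a single list, against 37.4% of all regions. By position, 12 lay within 2.5 kb of a start of their gene, 2 at the Pgs1 start, 5 in introns, 1 in an exon, 4 upstream and 3 downstream. None was called in all control and no 4xIOP lists, a pattern of 1.05% of all regions, and none in all 4xIOP and no control lists, a pattern of 0.0150%. Of the windows of 300 bases centred on the summits of the 27 regions, 5 held TTCNNNGAA, 18.5%, against 6.65% of the windows of all consensus regions. The 5 were the windows of Lifr regions 2 and 3, Stat3 region 1 and Socs3 regions 3 and 5, and 3 of these regions were called in 1 list only. The windows of Stat3 region 1 (195 bp) and Socs3 region 3 (197 bp) were longer than the regions, and their matches lay outside them. Over the whole length of the regions, matches lay in Lifr regions 2, 3 and 8, Socs3 regions 2, 4 and 5, Jak1 region 2 and Jak2 region 1.

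The length covered by peaks in the 9 loci was 9.99, 8.06 and 14.8 kb in control and 7.86, 8.23 and 7.18 kb in 4xIOP lists. The means were 10.9 ± 3.47 and 7.75 ± 0.533 kb (SD, n = 3), and an exact two-sided permutation test gave p = 0.2. The 4xIOP mean was 0.708 of the control mean, close to the ratio of 0.682 for the length covered over the whole genome (9.06 ± 2.08 against 13.3 ± 5.99 Mb; SD, n = 3). Control replicate 3 was the high value, and without it the difference went from -3.19 to -1.27 kb. With lists of equal length, cut to their top peaks, it was -0.782 kb.

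The rank of each shared feature within its list was then compared with limma, on normal scores of the rank of each fold. Such ranks do not show a change common to all features. Features missing from a list, such as the Socs3 promoter, were not tested. Of 8906 promoters marked in all 6 lists, 0 passed a Benjamini-Hochberg adjusted p of 0.05 in either direction (0% called), and 276 (3.10%) had an unadjusted p under 0.05, of which 130 were higher and 146 lower in 4xIOP. Of 10529 regions called in all 6 lists, 0 passed (0% called) and 334 (3.17%) had an unadjusted p under 0.05. None of the 5 promoters and none of the 9 regions of these genes was among the features with an unadjusted p under 0.05. The largest promoter difference among them was that of Jak1, with a 4xIOP minus control score of -0.66 ± 0.44 (SE; limma, Benjamini-Hochberg adjusted p = 0.9996). Il6st followed at -0.46 ± 0.39, Lifr was at -0.09 ± 0.40, and Jak2, at 0.22 ± 0.36, was the only positive one. Without 4xIOP replicate 3 the Jak1 difference was -1.24 ± 0.38 (SE; limma, Benjamini-Hochberg adjusted p = 0.841) and without 4xIOP replicate 1 it was -0.36. With the lists grouped by name, and with no test, all 5 differences were positive, from 0.04 (Lifr) to 0.93 (Jak1), with Il6st at 0.80 and Stat3 at 0.29. In relative fragments the differences by name were -19.6 for Lifr, -7.98 for Jak1, -11.0 for Jak2, 6.15 for Il6st and 6.19 for Stat3. The sign by name thus depended on the scale for Lifr, Jak1 and Jak2. The median SE over all promoters was 0.39, and the 0 calls do not show that scores were equal. The median difference of the 5 was -0.09, beside 0.01 for all 8906 promoters, of which 49.4% had a negative difference. Ranking these same promoters within each list largely fixes the latter 2 values. Among regions, Socs3 region 5 had the largest positive difference, 0.55 ± 0.34 (SE; limma, Benjamini-Hochberg adjusted p = 0.9999). In relative fragments this region was lower in 4xIOP replicates 1 and 2 than in any control list, so the sign depended on the scale. Grouped by name, the lists gave this region a score difference of -0.80.

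**Figure D4:**
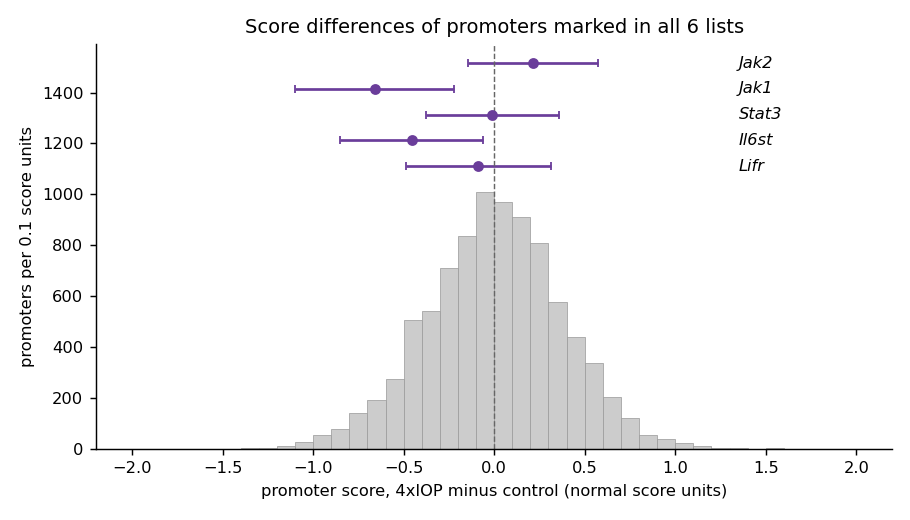
Histogram of the 4xIOP minus control difference in promoter score (x axis, normal score units) for the 8906 promoters marked in all 6 lists (y axis, promoters per bin), with the 5 pathway genes tested above it as points with their standard error. The 5 points range from -0.66 (Jak1) to 0.22 (Jak2). Jak1 lies just below the 5th percentile of all promoters (-0.63) and the other 4 lie between the 5th and the 95th (0.61).

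The wider pathway was read from 76 other genes in 5 lists. The share with a marked promoter was 61.8%, 55.3% and 67.1% in control lists and 48.7%, 50% and 55.3% in 4xIOP lists. The group means were 61.4% ± 5.93 and 51.3% ± 3.48 (SD, n = 3; exact two-sided permutation p = 0.2), a difference of -10.1 points, beside -4.72 points for all protein-coding genes. It was -2.63 points with lists of equal length, cut to their top peaks. With the lists grouped by the names their peaks carry it turned to 2.19 points, whereas the difference over all protein-coding genes stayed negative at -3.60 points. By role, 17 of 21 inhibitors and adaptors were marked in all 6 lists, against 1 of 10 ligands, 0 of 5 receptors, 3 of 8 JAK and STAT genes and 10 of 32 STAT3 response genes. Beside the 40.6% of all protein-coding genes, the shares of the JAK and STAT genes (37.5%) and of the STAT3 response genes (31.3%) lay near the background, the inhibitors and adaptors (81.0%) above it and the ligands (10%) below it. Of the 31 genes marked in all 6 lists, 0 passed the limma test in either direction and 0 had an unadjusted p under 0.05, and their median score difference was 0.17.

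Among inhibitors and adaptors, Socs4 had the highest mean fold percentile, with 38, 38 and 60 fragments in control and 33, 24 and 39 in 4xIOP lists. Ptpn1, a tyrosine phosphatase that acts on JAK kinases, had the lowest, with 48, 40 and 81 against 36, 33 and 37. Among STAT3 response genes, the highest was Klf6, a zinc finger transcription factor, with 85, 82 and 107 against 54, 55 and 70. The lowest was Junb, a subunit of AP-1, with 81, 71 and 98 against 54, 47 and 72 fragments. In all 4 genes raw fragments were highest in control replicate 3, and no difference passed the test. The score differences, 4xIOP minus control, were 0.63 ± 0.36 for Junb and 0.25 ± 0.37 for Klf6 (SE). They were 0.03 ± 0.41 for Socs4 and -0.15 ± 0.40 for Ptpn1 (SE). For Junb and Klf6 the direction thus depended on the scale.

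STAT3 response genes were marked at 59.4%, 56.3% and 59.4% in control and at 40.6%, 37.5% and 59.4% in 4xIOP lists, so 4xIOP replicate 3 was level with the controls. The low shares were those of the 2 4xIOP lists named as control, so that the mean difference of -12.5 points by label was 12.5 points when the lists were grouped by name. No list marked 12 of the 32 (37.5%, beside 41.2% of all protein-coding genes), among them Gfap, Vim, Timp1 and Icam1, examples picked after the values were seen. Bcl3, Cebpd and Irf1, singled out after their values were seen, shared the Socs3 pattern of a peak in all control lists and in 4xIOP replicate 3 only. That pattern held for 3 of the 76 genes and for 0.369% of all protein-coding genes. Bcl3, a regulator of NF-kappa B, had 93, 96 and 25 fragments in control and 71 in 4xIOP replicate 3. Cebpd, an acute-phase transcription factor, had 61, 63 and 14 in control and 28 in 4xIOP replicate 3. Irf1, an interferon-response factor, had 20, 26 and 17 in control and 36 in 4xIOP replicate 3. As in Socs3, control replicate 3 had the lowest count of the 4 lists for each of them, although it was the list with the most peaks. The 3 lists with the higher counts were again those named as pressure-treated, and the lists with the lowest count or no peak were those named as control. The choice of these genes by their missing peaks fixes which lists lack a peak, but not the low count of control replicate 3. Of the 10 STAT3 response genes marked in all 6 lists, only Fgf2 had every list named as pressure-treated above every list named as control. It had 101, 107 and 62 fragments against 35, 19 and 25, and was singled out after its values were seen. The cause of this order was not tested.

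**Figure D5:**
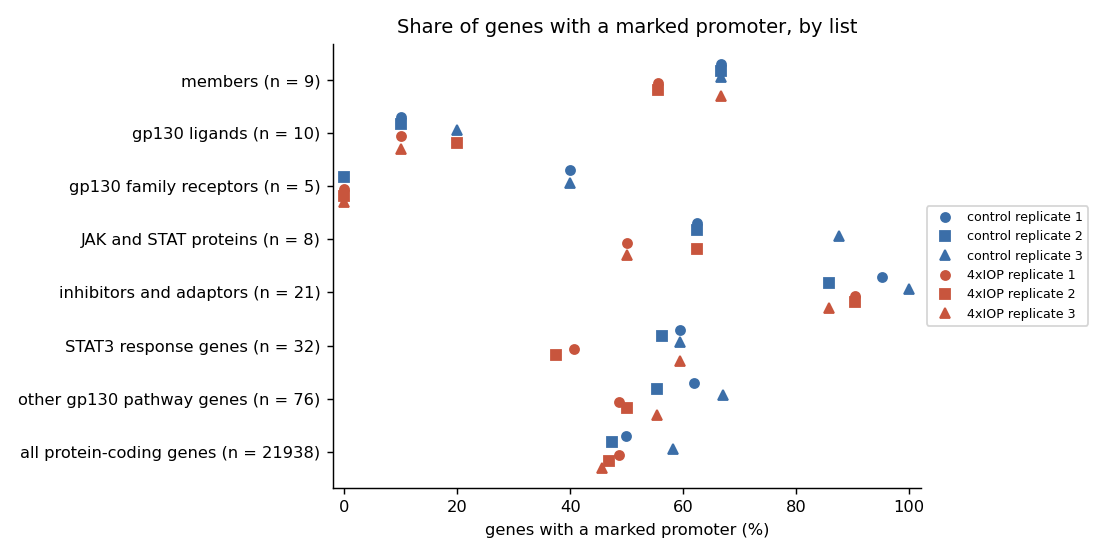
Percent of genes with a marked promoter (x axis) in each list (blue, control; red, 4xIOP) for the 9 genes described, the 5 lists of other pathway genes, their sum and all protein-coding genes, with the number of genes in parentheses. Inhibitors and adaptors sit at 85.7% to 100% in every list and ligands at 10% to 20%, and 4xIOP replicates 1 and 2 stand at 40.6% and 37.5% for STAT3 response genes.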

How the data were processed

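H3K27ac ChIP-seq of bulk mouse retina was deposited as 6 narrowPeak lists, one per retina. The submitters' processing notes name STAR 2.7.8a, MACS2, HOMER, edgeR, bedtools 2.29.2 and the build mm10, without roles, and the calling threshold is not given in the sources used here. Per the deposited files, each peak has a fold (ratio) over local background, a −log10 p-value and q-value, a score and a summit offset. The lowest −log10 q was 1.31 to 1.40 by list. Reads were not used here, so counts outside peaks are unknown.

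Summit fragments and background were recovered as the whole number that gives both deposited fold and p (within 0.001 on the −log10 p scale for at least 99.99% of peaks), and the recovery was tested on simulated data. Peaks (1 bp overlap) were assigned to GENCODE M21 genes on GRCm38, with all transcripts. Scores were normal scores of fold ranks, tested with limma 3.58.1 in R 4.3.3 and adjusted by Benjamini-Hochberg over all promoters or regions shared by the 6 lists. The fit was tested on simulated data. Where nothing says that retinas came from separate animals, p-values measure only the spread between these samples. Sequences came from RefSeq promoter tables and the RefSeq GRCm38.p6 genome.

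Genes named by rule beside the 9 were those marked in every list of one group and no list of the other, those with the highest and lowest mean fold percentile of each pathway list, and the promoter most correlated with each gene. Some genes that these rules name are not reported here, and other pathway genes named were examples chosen after their values were seen. The genes, lists and rules were chosen with earlier results of these data known. Alternatives covered peak thresholds, list length, promoter and locus width, overlap, the value ranked, transcripts, each list left out and the replicate number as a block. A restriction to the 2 lists whose names match their labels and a grouping by the carried names, without tests, were chosen after seeing the data. The correlation of same-numbered lists (deviations from group means) was -0.01, -0.05 and -0.14 for numbers 1 to 3.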

Additional observations from a re-analysis of the deposited data

How the results depend on the processing

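The direction and the absence of calls held for 55 of 60 recomputed promoter score differences of the 5 genes tested. For Lifr the sign turned with log2 fragments over background (0.0092), and the values without 1 list ranged from -0.31 to 0.31, turning positive without control replicate 2 or 4xIOP replicate 3. For Stat3 they ranged without 1 list from -0.13 to 0.19, turning positive without control replicate 2 or 4xIOP replicate 2. With 1 list left out, Jak1 was negative from -1.24 (without 4xIOP replicate 3) to -0.36 (without 4xIOP replicate 1), and without 4xIOP replicate 2 it was -0.38. Il6st was negative from -0.82 (without 4xIOP replicate 3) to -0.20 (without 4xIOP replicate 1), and Jak2 positive from 0.10 to 0.37. With log2 fragments over background, which is another unit, Stat3 was at -0.30, Jak1 at -0.20 and Jak2 at 0.07, and with −log10 p ranked Stat3 was at -0.37. The limma calls stayed at 0 under every alternative run, except that without 4xIOP replicate 3 the promoter test called 1 gene (range 0 to 1). The number of regions of the 9 loci called in all control and no 4xIOP lists was 0 to 2 when 1 list was left out: 1 without 4xIOP replicate 1 and 2 without 4xIOP replicate 3. The reverse number stayed at 0. Without 1 list, the difference in marked genes ranged from -1 to -0.5, in covered length from -4.63 to -1.27 kb and in the share of other pathway genes from -13.2 to -7.24 points. With equal numbers of top peaks that share differed by -2.63 points. Marked genes differed by -0.333 both with equal numbers of top peaks and at a −log10 q of at least 5. With only the 2 lists whose names match their labels, chosen after seeing the data and without replicates, the difference in marked genes was 0, in covered length -7.61 kb, and 11 regions were called in control replicate 3 only and 3 in 4xIOP replicate 3 only. The lists were also grouped by the names their peaks carry, again chosen after seeing the data. The difference in marked genes was then 0.667, in the share 2.19 points and in covered length -1.88 kb. In that grouping 1 region, Jak2 region 3, was called in all lists named as control and in none named as pressure-treated. The cause of these changes was not tested. With the replicate number as a block (the lists share only a number, as correlations were at or below -0.01), limma called 0 promoters and 0 regions, and the block changed no other call. Depth limits every absence: a promoter without a peak may hold signal under the threshold.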

Other observations

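For each gene tested, the promoter whose score followed it most closely over the 6 lists was found among 8905 others, as a description with n = 6 lists, the same for every promoter and unequal in depth. It was Chgb, encoding chromogranin B, for Lifr (r = 0.992), Wdr26 for Il6st (r = 0.996), Ssh1, a cofilin phosphatase gene, for Stat3 (r = 0.993), Wdr12, a ribosome biogenesis gene, for Jak1 (r = 0.996) and Sp4, a transcription factor gene, for Jak2 (r = 0.986). With so few lists, 62 to 104 promoters had r above 0.9 with each gene, and nothing is read from a single match.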
